A study of Mus musculus with 12 samples.

Results

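2900052N01Rik and Gm32122 are 2 long intergenic noncoding genes of the mouse, and they were followed through the cortex of mice with and without a mutation of Tbl1xr1. They are 2 of 54232 gene identifiers counted and 2 of 18016 genes with enough reads to be tested. They were picked by identifier (ENSMUSG00000099696 and ENSMUSG00000110633) because earlier results on these same libraries had set them apart between mutant and wild-type mice. Their own difference between genotypes is therefore given as a description, with no test. The cortex came from 12 C57BL/6J mice aged 12 weeks, of which 6 were homozygous for the Y446C allele of Tbl1xr1 (Tbl1xr1Y446C/Y446C) and 6 were wild type, with 3 females and 3 males of each genotype. Libraries are named by sex, genotype and animal number.

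Long intergenic noncoding RNAs are transcripts that lie between protein-coding genes and hold no recognised protein-coding frame. Many are spliced and polyadenylated like messenger RNAs, which lets a library kit that captures poly(A) tails pick them up, and some act on the genes beside them while for most no role is known. The protein made from Tbl1xr1 belongs to the NCoR corepressor, a complex that nuclear receptors and other transcription factors bring to their target genes to hold them low. For neither of these noncoding genes is a function given here.

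2900052N01Rik lies on the forward strand at chr9:46913493-46927366 (GRCm38, GENCODE M21), has 3 annotated transcripts, and its longest one, of 2695 bases, joins 4 exons. Gm32122 lies on the reverse strand at chr8:96371727-96403862, has 1 annotated transcript of 2259 bases, and joins 6 exons. Both are classed as lincRNA, and 0 of the counted genes annotated in GENCODE M21 overlap either of them on any strand. The strand setting of the counting is not given, so reads of an unannotated transcript on the other strand could still enter their counts. The ends of both transcripts are shown because they bear on capture by the poly(A) tail. Capitals mark AATAAA, the canonical polyadenylation signal.
2900052N01Rik, last 60 bases: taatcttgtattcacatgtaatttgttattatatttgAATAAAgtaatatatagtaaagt
Gm32122, last 60 bases: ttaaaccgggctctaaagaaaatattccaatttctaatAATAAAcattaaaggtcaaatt
The hexamer ended 17 bases before the annotated end of 2900052N01Rik and 16 bases before that of Gm32122. It was present on the transcribed strand in the last 60 bases of 32.4% of the longest transcripts of 6058 lincRNA genes.

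Each transcript also holds a long stretch of low complexity, shorter in each case than the reads (150 bases). In 2900052N01Rik it is an unbroken run of 141 purines, at bases 491 to 631 of the longest transcript, shown in capitals with 20 bases on either side.
2900052N01Rik, purine run: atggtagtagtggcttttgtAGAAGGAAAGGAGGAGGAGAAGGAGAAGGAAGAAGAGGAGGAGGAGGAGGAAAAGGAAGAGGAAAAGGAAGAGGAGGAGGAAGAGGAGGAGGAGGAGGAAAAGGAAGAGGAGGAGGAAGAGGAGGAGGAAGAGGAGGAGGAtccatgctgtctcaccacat
A run of purines at least this long was found in 12 of the 6058 lincRNA transcripts (0.198%). In Gm32122 the stretch is a run of 24 adenines at bases 1160 to 1183, in capitals here, and 18 of the 6058 (0.297%) had a run of A of at least this length.
Gm32122, run of A: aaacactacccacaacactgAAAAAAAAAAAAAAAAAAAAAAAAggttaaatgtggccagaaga
The deposited counts are per gene and do not show how many reads fell in these stretches. The longest frame from an ATG to a stop spanned 142 codons in 2900052N01Rik, a length that 4.24% of lincRNA transcripts reach, and 46 codons in Gm32122, below the lincRNA median of 60.

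The start of each gene is shown as the annotation gives it. For 2900052N01Rik the RefSeq promoter window covers chr9:46913353-46913652 on the forward strand (GRCm38.p6), from 250 bases before to 50 after the RefSeq start. The longest GENCODE transcript starts 110 bases earlier, and capitals mark the part that falls in its first exon. The other annotated transcripts start at chr9:46913603, which is the RefSeq start, and at chr9:46913627. For them part of the capitals lies before the start.
2900052N01Rik, promoter: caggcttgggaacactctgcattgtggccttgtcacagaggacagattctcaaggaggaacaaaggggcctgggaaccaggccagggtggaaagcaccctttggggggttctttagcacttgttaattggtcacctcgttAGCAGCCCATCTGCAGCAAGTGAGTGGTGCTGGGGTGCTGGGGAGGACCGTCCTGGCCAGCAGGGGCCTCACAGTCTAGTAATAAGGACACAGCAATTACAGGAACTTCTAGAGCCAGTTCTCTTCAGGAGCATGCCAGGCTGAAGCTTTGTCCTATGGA
This window held 2 CG dinucleotides, against a median of 7 over 32851 RefSeq promoter windows. Searched on both strands, AGGTCA, the half-site of many nuclear receptors, had 0 matches (present in 16.3% of windows), as did its direct repeat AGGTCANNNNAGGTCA (0.0152%) and TATAAA (13.6%), while CCAAT had 1 match (37.4%). For Gm32122 the first and second exons of the transcript are given as its 5′ end, with the second exon in capitals.
Gm32122, exons 1 and 2: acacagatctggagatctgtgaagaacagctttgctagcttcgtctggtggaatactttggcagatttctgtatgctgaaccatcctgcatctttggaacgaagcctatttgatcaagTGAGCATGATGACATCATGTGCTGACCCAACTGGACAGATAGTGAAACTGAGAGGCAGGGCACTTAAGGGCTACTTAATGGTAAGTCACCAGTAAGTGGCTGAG
Exon 1 spans chr8:96403745-96403862 and exon 2 chr8:96382400-96382503 on the reverse strand.

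Counts assigned to genes ran from 21238427 to 32669138 in 11 libraries, with 5.23% to 10.4% of them mitochondrial. Female mutant 3 stood apart with 3748515 counts and a mitochondrial share of 31.6%, so results are given with and without it. CPM stands for counts per 1000000, on totals scaled by TMM. The level that a count of 0 allows was 0.0861 to 0.137 CPM for the 11 libraries and 1.16 CPM for female mutant 3, counting error only. Tbl1xr1 itself measured 105 ± 7.05 CPM without and 93.5 ± 2.69 CPM with the mutation (SD, n = 6), which did not pass the test (edgeR adjusted p = 0.950), and the counts carry no sequence that could check the allele.

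2900052N01Rik was well covered, with 6090 reads over the wild-type and 10105 over the mutant libraries. In wild-type females 2, 4 and 5 it stood at 40.7, 42.0 and 39.4 CPM, and in wild-type males 8, 12 and 13 at 45.6, 37.6 and 45.3 CPM. In mutant females 1, 3 and 6 it stood at 64.4, 186 and 86.1 CPM, and in mutant males 7, 10 and 27 at 64.7, 55.4 and 71.5 CPM. Every mutant library lay above every wild-type library, the lowest mutant, male 10, at 1.21 times the highest wild type, male 8. Such a separation was found for 26 of 18016 tested genes (0.144%), and since this contrast chose the gene, nothing is read from it. Wild-type mice averaged 41.8 ± 3.22 CPM and mutants 88.0 ± 49.2 CPM (SD, n = 6), a ratio of 2.11. Female mutant 3 stood at 2.88 times the median of the other mutants. Without it the mutant mean was 68.4 ± 11.4 CPM (SD, n = 5) and the ratio 1.64. Among wild-type mice the level varied little, with a coefficient of variation of 7.71% where counting error alone would give 3.14%, beside a median of 7.92% over the 2838 tested genes within 1.5-fold of its level.

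Gm32122 was near the lower limit of what these libraries can count, with 59 reads over the wild-type and 167 over the mutant libraries. In wild-type females 2, 4 and 5 it stood at 0.394, 0.519 and 0.202 CPM, and in wild-type males 8, 12 and 13 at 0.682, 0.333 and 0.311 CPM. In mutant females 1, 3 and 6 it stood at 1.18, 0.774 and 1.12 CPM, and in mutant males 7, 10 and 27 at 1.14, 1.26 and 1.15 CPM. The 5 mutant libraries other than female mutant 3, with 25 to 44 reads each, lay at 1.64 times the highest wild type or more. They lay close together, with a coefficient of variation of 4.83%. Counting error alone is larger than this at such read numbers, so no uniform level is read from it. Female mutant 3 held 2 reads, under its floor of 3, and the exact Poisson interval of those reads (95%, counting error only) spans 0.0938 to 2.80 CPM, so its place relative to the wild type was not detectable at this depth. On plain library totals, without TMM, it stood at 0.534 CPM, below female wild-type 4 (0.549 CPM) and male wild-type 8 (0.676 CPM). Wild-type mice averaged 0.407 ± 0.170 CPM and mutants 1.10 ± 0.169 CPM (SD, n = 6), a ratio of 2.71, and 1.17 ± 0.0565 CPM without female mutant 3 (SD, n = 5), a ratio of 2.88. The ratio of the pooled reads, scaled for depth, was 2.89, with an exact interval for counting error of 2.14 to 3.96. This interval leaves out the spread between mice and the choice of the gene on this contrast, so it is no test of genotype. The spread in the wild type was mostly that of counting, with a coefficient of variation of 41.9% beside 31.9% from counting alone and a median of 39.1% over 1756 genes of like level.

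**Figure D1:**
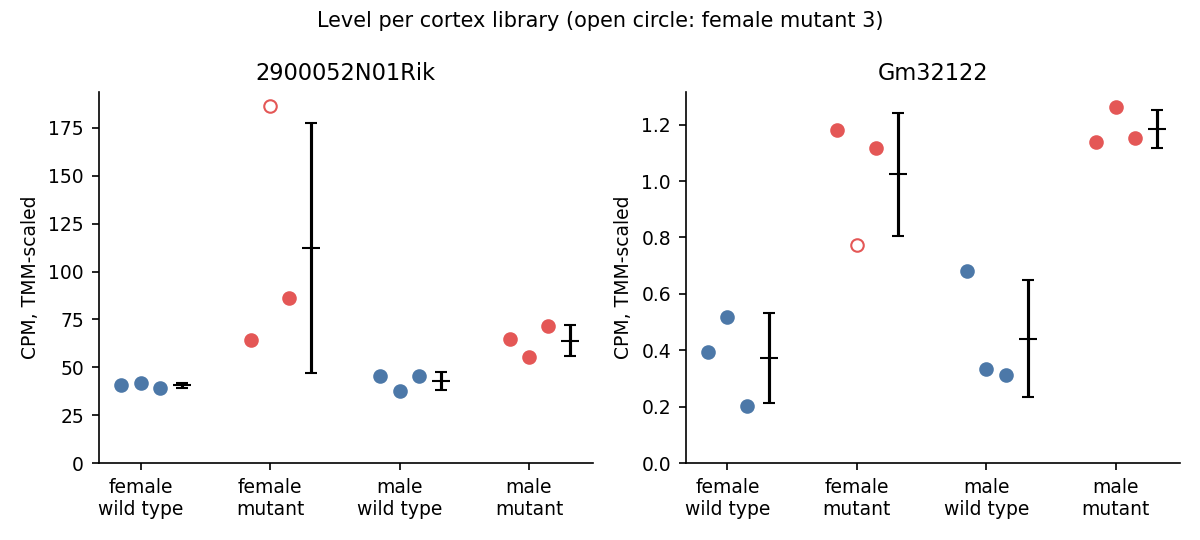
CPM on TMM-scaled totals (vertical axis, from 0) of 2900052N01Rik (left) and Gm32122 (right) in each of the 12 libraries by sex and genotype; points are mice, the open circle is female mutant 3, and bars give the mean and SD of each group. Wild-type mice sit between 37.6 and 45.6 CPM for 2900052N01Rik and between 0.202 and 0.682 CPM for Gm32122, below the 5 mutant libraries other than female mutant 3. Female mutant 3 is the highest mutant in the left panel, and its point in the right panel (0.774 CPM) rests on 2 reads and cannot be placed relative to the others.

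On the scale of log2 CPM with a prior count of 2, the mean of the mutants exceeded that of the wild type by 0.94 (SE 0.26) for 2900052N01Rik and by 1.33 (SE 0.22) for Gm32122. Without female mutant 3 these differences were 0.70 (SE 0.11) and 1.43 (SE 0.21). In females the difference was 1.31 (SE 0.46) for 2900052N01Rik, or 0.87 (SE 0.21) without female mutant 3, and in males it was 0.57 (SE 0.14). For Gm32122 it was 1.33 (SE 0.36) in females and 1.34 (SE 0.31) in males. Without female mutant 3 the female value of Gm32122 was 1.503 (SE 0.32). The direction was the same in each sex for both genes. The genes were chosen on these same libraries of both sexes, so this is no independent support.

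Since this contrast chose the genes, the counts of calls are given for orientation only and nothing is read from them. With both sexes in the model, edgeR called 1 of 18016 genes (0.00555%), the macrophage gene Mpeg1, which was lower, and 0 of the 2 noncoding genes, with 713 genes at an unadjusted p under 0.05. Without female mutant 3, edgeR called 1 gene of 18461 as higher (0.00542%), and it was 2900052N01Rik. DESeq2 called both noncoding genes, among 9 genes called higher (0.05%), and both again without female mutant 3, among 20 (0.108%). On TMM-scaled CPM all 6 mutants lay above all 6 wild-type libraries for 26 of 18016 genes (0.144%). Both noncoding genes are among them, Gm32122 only under this scaling, through the 2 reads of female mutant 3. With female mutant 3 set aside, 87 genes did so (0.483%). Groups that did not overlap in either direction were found for 79 genes (0.438%). With no filter on low counts edgeR called 1 of 32329 genes (0.00309%), neither of the 2 among them, and without female mutant 3 it called 150 of 32285 (0.465%), both among them.

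Sex was not used in choosing the genes, and it was tested across all 18016. Males differed from females by -0.35 on the log2 scale (SE 0.24) for 2900052N01Rik and by 0.16 (SE 0.26) for Gm32122. Neither passed edgeR's test (adjusted p = 0.897 and adjusted p = 0.904), which called 7 genes (0.0389%) for sex. Without female mutant 3 the sex difference of 2900052N01Rik was -0.074 (SE 0.097; edgeR adjusted p = 0.9997). The effect of genotype in males less that in females was -0.85 (SE 0.41) for 2900052N01Rik and -0.13 (SE 0.53) for Gm32122, and neither passed (edgeR adjusted p = 0.555 and adjusted p = 0.927). For this difference edgeR called 0 genes (0%), with 1381 at an unadjusted p under 0.05, and DESeq2 called 4. Without female mutant 3 the value for 2900052N01Rik was -0.31 (SE 0.18; edgeR adjusted p = 0.534).

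The genes beside each noncoding gene were chosen by position alone, and their levels were tested over both sexes. 2900052N01Rik lies in a stretch poor in coding genes: within 500 kb there are 12 annotated genes, of which 1 is protein-coding and 2 had enough reads to be tested. The nearest tested gene is Gm31614, another lincRNA on the same strand, 75.9 kb away. Wild-type mice averaged 0.469 ± 0.156 CPM of it and mutants 0.712 ± 0.202 CPM (SD, n = 6), with overlapping groups, and did not pass (log2 fold change 0.56, SE 0.30, edgeR adjusted p = 0.950). On the other side the lincRNA Gm31816, 315 kb away, stood at 0.276 ± 0.117 and 0.324 ± 0.256 CPM (log2 fold change 0.46, SE 0.41).

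The nearest coding genes of any abundance lie about as far away on either side. Cadm1, which encodes a cell adhesion molecule found at synapses, lies 603 kb away. It stood at 223, 195 and 183 CPM in wild-type females 2, 4 and 5, and at 196, 206 and 249 CPM in wild-type males 8, 12 and 13. In mutant females 1, 3 and 6 it stood at 229, 298 and 290 CPM, and in mutant males 7, 10 and 27 at 226, 239 and 273 CPM. The groups overlapped through male wild-type 13, and the means were 209 ± 23.7 and 259 ± 32.1 CPM (SD, n = 6; log2 fold change 0.31, SE 0.10; edgeR adjusted p = 0.950, unadjusted p = 0.0104). Bud13, a gene of the spliceosome-associated RES complex 614 kb away on the other side, stood at 8.30 ± 0.777 and 10.6 ± 3.57 CPM, a log2 fold change of 0.27, or 0.15 without female mutant 3. The zinc finger gene Zpr1 next to it stood at 26.6 ± 1.52 and 24.1 ± 4.07 CPM, and the lincRNA Gm40518, 1205 kb away beyond Cadm1, at 3.51 ± 0.877 and 4.29 ± 1.43 CPM. EdgeR called none of these 6 neighbours, each at adjusted p = 0.950, and none without female mutant 3, where edgeR gave adjusted p = 0.520 to 0.966.

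Gm32122 lies in a wider gap, with 8 annotated genes within 500 kb, of which 1 is protein-coding. Its closest neighbour is Gm32005, a lincRNA on the opposite strand 10.2 kb away. Gm32005 had too few reads for the test, with 12 reads over the wild-type and 21 over the mutant libraries, and 6 of the latter came from female mutant 3. Its level was 0.0405 to 0.160 CPM in the wild type and 0 to 0.201 CPM in the mutants other than female mutant 3, which stood at 2.32 CPM. An exact two-sided permutation test over the 12 libraries gave p = 0.288 (924 labellings; smallest possible 0.00216), and over 11 libraries p = 0.578. Adjusted over the 8 genes with at least 10 reads within 500 kb of either noncoding gene, these were 0.526 and 0.678, and 0 of the 8 passed. The lincRNA closest to Gm32122 thus did not differ detectably between genotypes at this depth.

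Of the other neighbours, Got2, the mitochondrial aspartate aminotransferase gene 483 kb away, averaged 191 ± 12.4 CPM in wild-type mice against 175 ± 31.3 CPM in mutants (SD, n = 6; log2 fold change -0.13, SE 0.12; edgeR adjusted p = 0.950). The amino acid transporter gene Slc38a7 (log2 fold change -0.13, SE 0.17) and Sap18b (7.46 ± 1.08 and 7.64 ± 1.55 CPM) follow on that side. On the far side the nearest tested genes are the pseudogene Gm5913, 1024 kb away, the cadherin gene Cdh8, 2621 kb away (65.3 ± 5.04 and 68.3 ± 13.9 CPM), and Gm45297, a predicted gene within the span of Cdh8. None of these 6 passed (edgeR adjusted p = 0.950 to 0.964). Within 1000 kb, 12 genes were tested around 2900052N01Rik, 7 with a positive and 5 with a negative log2 fold change (median 0.053), and 18 around Gm32122, 5 positive and 13 negative (median -0.061), against a median of -0.010 over all tested genes. EdgeR called 0 of the 12 and 0 of the 18, with or without female mutant 3, and DESeq2 called 0 too. At an unadjusted p under 0.05 there was 1 gene in each window, Cadm1 and the predicted gene Gm45853 (log2 fold change -0.61), the latter named after its value was seen.

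**Figure D2:**
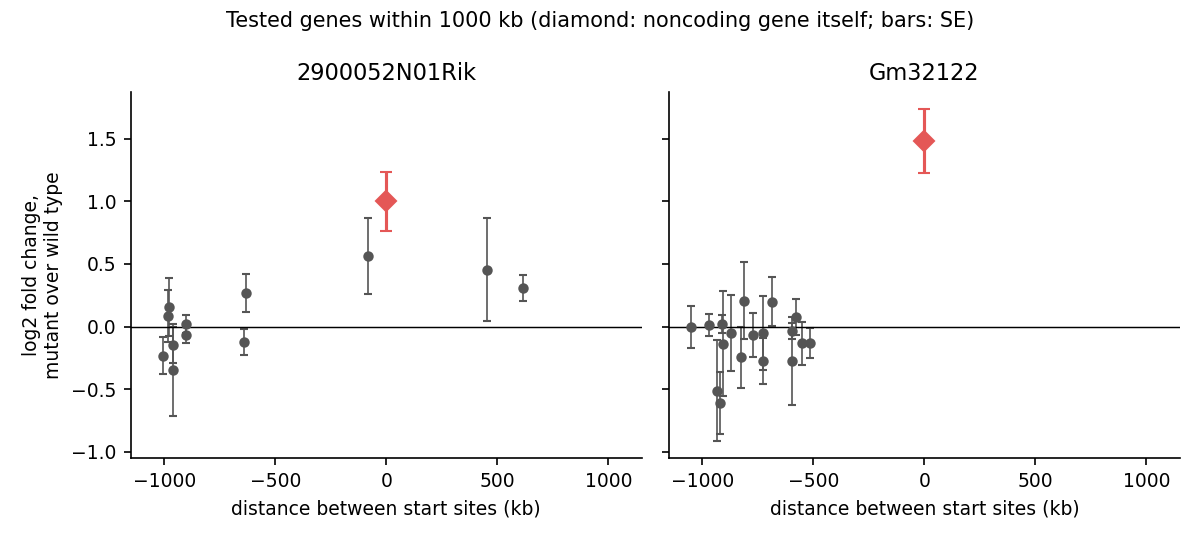
Log2 fold change of mutant over wild type with its SE (vertical axis) against the distance between start sites in kb (horizontal axis) for tested genes within 1000 kb of 2900052N01Rik (left) and Gm32122 (right); the diamond at 0 is the noncoding gene itself. The 12 and 18 neighbours lie between -0.61 and 0.56, and the noncoding genes at 0.999 and 1.48, or 0.717 and 1.51 without female mutant 3. Since this contrast chose the noncoding genes, nothing is read from their place above the neighbours.

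**Figure D3:**
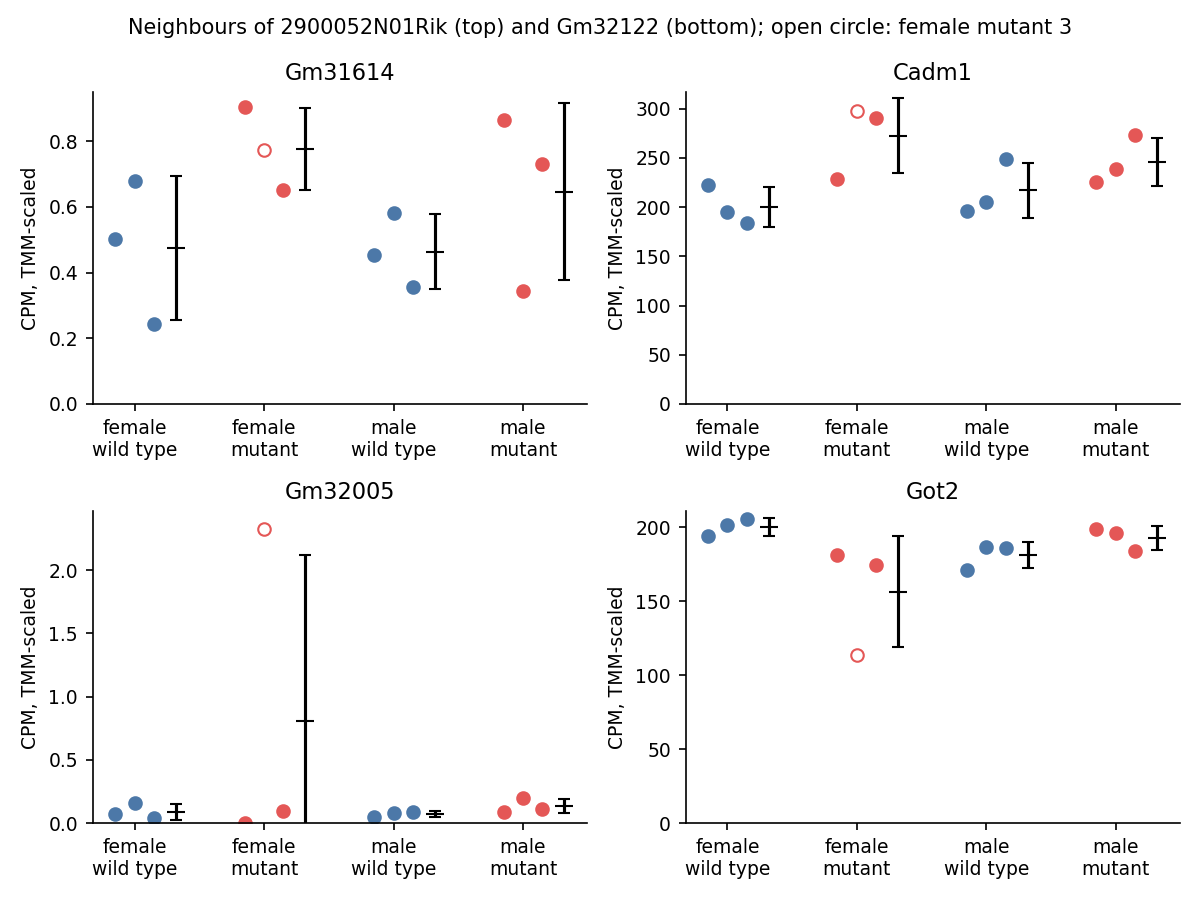
CPM on TMM-scaled totals (vertical axes, from 0) in each library for Gm31614 and Cadm1, near 2900052N01Rik, and Gm32005 and Got2, near Gm32122; points are mice, open circles female mutant 3, and bars the mean and SD of each group, drawn only above 0. Wild-type and mutant points overlap in all 4 panels, and female mutant 3 alone is high for Gm32005 (2.32 CPM) and low for Got2 (113 CPM).

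Per kilobase of exon, 2900052N01Rik stood at 12.9 CPM per kb in the wild type, rank 22 of 1603 tested long noncoding genes, and Gm32122 at 0.180 CPM per kb, rank 1392. Over all long noncoding genes the median log2 fold change was -0.029, beside -0.010 over all tested genes, edgeR called 0 of 1603, and on TMM-scaled CPM all mutants lay above all wild-type libraries for 3 (0.187%). The 3 include 2900052N01Rik and, through the 2 reads of female mutant 3, Gm32122, and since this contrast chose both, nothing is read from that. Of 20 noncoding RNAs known from cortex, 19 matched an identifier and were tested, and edgeR called 0 in either direction, with 13 higher and 6 lower by sign and a median of 0.12, or 0.01 without female mutant 3. The most abundant were the imprinted Meg3 (wild-type mean 3171 ± 558 CPM, mutant mean 3871 ± 1655 CPM; SD, n = 6), Snhg11, a neuronal host of small nucleolar RNAs (1666 ± 212 and 1843 ± 351 CPM), the nuclear-speckle RNA Malat1 (1575 ± 278 and 1670 ± 870 CPM) and the imprinted Rian (563 ± 27.5 and 611 ± 94.1 CPM). The summed level of the 19 was 6932 to 10327 CPM in the wild type, 7013 to 8811 CPM in 5 mutants and 15614 CPM in female mutant 3, so the library in which 2900052N01Rik was highest was also highest for these RNAs. Its part in the result was not tested.

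**Figure D4:**
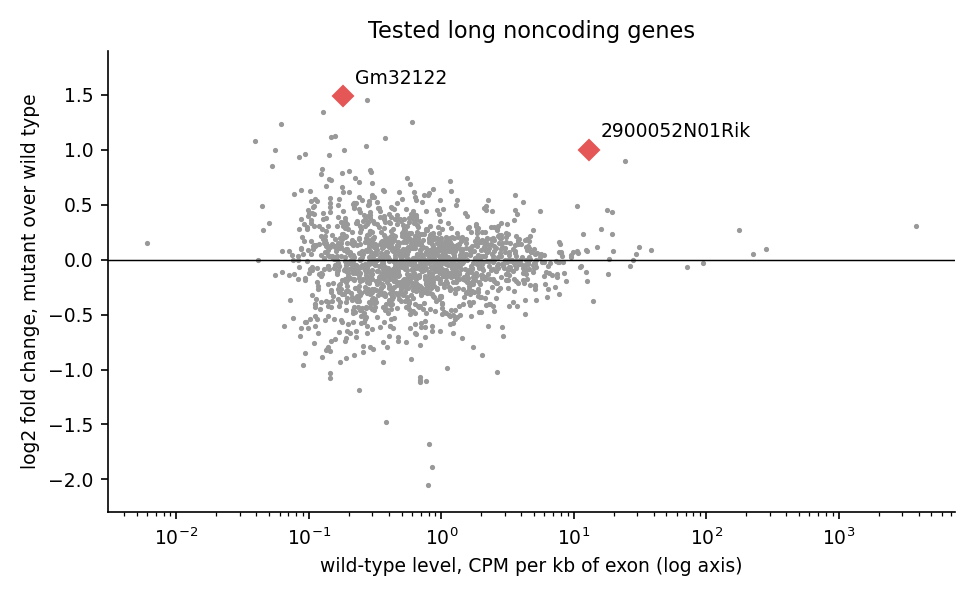
Log2 fold change of mutant over wild type (vertical axis) against the wild-type level in CPM per kb of exon (horizontal log axis) for the 1603 tested long noncoding genes, with 2900052N01Rik and Gm32122 as diamonds. Gm32122 (1.48) lies to the left at 0.180 CPM per kb, while 2900052N01Rik (0.999) lies to the right at 12.9 CPM per kb.

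The genes whose log2 CPM followed each noncoding gene most closely over the 12 libraries were ranked by Pearson's r, as a description. The libraries share genotype and depth, so these values carry no test. For 2900052N01Rik they were Siah3 (r = 0.968), a relative of the Siah ubiquitin ligases, the kinetochore gene Zwint (0.967), the lincRNA Gm32618 (0.957), Srp14 (0.957), a subunit of the signal recognition particle, and Polr3gl (0.953), a subunit of RNA polymerase III. For all 5, female mutant 3 lay above the mean of the other mutants, Siah3 for example standing at 12.4 ± 1.09 CPM in the wild type, 15.4 CPM on average in 5 mutants and 31.0 CPM in female mutant 3. Over the 11 other libraries their r was 0.863 to 0.916, and 2 of the 5 stayed among the first 5. For Gm32122 the first 5 were the imprinted signalling gene Gnas (r = 0.861), the biotin ligase gene Hlcs (0.848), the imprinted zinc finger gene Zim1 (0.844), the phosphatase gene Ctdp1 (0.821) and Eps8 (0.814), an actin regulator. Of these, 1 stayed among the first 5 over 11 libraries. None of the 10 passed edgeR's test of genotype (adjusted p = 0.659 for Zim1 and 0.950 for the others). Between the 2 noncoding genes r was 0.564 over 12 libraries and 0.850 over 11.

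Markers of other cell types and regions were read in the same libraries. Cortical excitatory neuron markers were abundant, at a summed 3257 to 3896 CPM over 10 genes in the wild type and 2711 to 4128 CPM in mutants, and 0 of the markers were listed at 0 throughout. Markers of striatal neurons, of which some are also expressed in cortex, had lower means in mutants for 12 of 12 genes (median log2 fold change -0.79), with sums of 751 to 2679 CPM in the wild type and 443 to 1557 CPM in mutants, and edgeR called 0 of the 12. Microglial markers had lower means for 9 of 10 genes (median -0.14), at 306 to 340 CPM in the wild type and 279 to 320 CPM in mutants, and edgeR called 0. Inhibitory neuron markers stood at 1074 to 1301 CPM in the wild type and at 973 to 1207 CPM in mutants. Female mutant 3 set an end of each of these mutant ranges. Without it the mutant sums were 2756 to 4128 CPM (excitatory), 443 to 1252 CPM (striatal), 296 to 320 CPM (microglial) and 973 to 1082 CPM (inhibitory). The median log2 fold changes were then -0.86 (striatal) and -0.076 (microglial). The summed levels overlapped between genotypes for each of these 4 lists, with or without that library, but for inhibitory markers only narrowly without it. The remaining lists covered glia, vessels, meninges, choroid plexus, blood, neighbouring brain regions and the complex of Tbl1xr1, and edgeR called 0 members of any of them. Among these lists too, some had a single sign. The log2 fold change was negative for 8 of 8 endothelial markers (median -0.05) and positive for 5 of 5 blood markers (median 0.15). For genotype, DESeq2 called 29 of 18016 genes over 12 libraries and 53 of 18461 without female mutant 3. Of these, 0 and 2 were members of a marker list, the 2 named after their values were seen. They were Gfap, an astrocyte marker (log2 fold change 0.56 by edgeR; DESeq2 adjusted p = 0.000631), and Gad1, an inhibitory neuron marker (-0.26 by edgeR; DESeq2 adjusted p = 0.0307). In bulk tissue fewer cells of a type and less RNA per cell cannot be told apart, and the part of these lists in the levels of 2900052N01Rik and Gm32122 was not tested.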

How the data were processed

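Raw read counts per gene were deposited by the authors as whole numbers, 1 column per mouse. The submitters' processing notes name Trimmomatic 0.36, HISAT2 2.1.0, HTSeq 0.11, Cufflinks and the build GRCm38.p6. For the strand setting and the annotation release: not given in the sources used here. Per the column names all libraries carry 1 lane, and the labels give no other batch. Gene positions came from GENCODE M21, promoter windows from RefSeq (GRCm38.p6; 1 of the 2 genes matched). The members, neighbours' windows and gene lists were chosen with earlier results of these data known.

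Genes were kept by filterByExpr over the 4 groups (18016), scaled by TMM and tested with edgeR 4.0.16 (R 4.3.3), quasi-likelihood, with sex and genotype as terms, or 1 mean per group for the sex difference of the genotype effect. Benjamini-Hochberg adjustment ran across the whole tested table, with calls at 0.05. Without a library its group kept 2, with the spread pooled over groups. Alternatives were DESeq2 1.42.0, limma-voom (limma 3.58.1), RLE scaling, library totals, no filter, 1 CPM in 6 libraries, no sex term, other prior counts (0.5 and 5), other windows (200 and 1000 kb) and leaving out each library. Genes named are the nearest 3 tested on each side, the 5 of highest correlation (mean of at least 1 CPM, autosomal), the called genes and the 4 most abundant listed noncoding RNAs. The depth ran from 3748515 to 32669138 counts.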

Additional observations from a re-analysis of the deposited data

Results flagged for a closer look

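In each genotype group of 6 libraries, the highest or lowest value was compared with its nearest neighbour. This was done for the 2 noncoding genes, their nearest tested genes, Tbl1xr1 and Gm32005. By Dixon's criterion 10 of 32 groups held a library set apart, which chance meets in about 1 of 20 groups of normal values. The groups come from the same 12 libraries and are not independent, so the count is no test. In 9 of the 10 it was female mutant 3, the library of lowest depth. It was the highest mutant for 2900052N01Rik (186 CPM, next 86.1), Bud13 (17.8 CPM), Gm40518 (6.97 CPM) and Cdh8 (94.9 CPM). It was also the highest for Gm32005 (2.32 CPM, from 6 reads) and Gm5913 (1.55 CPM), the latter too near the library's floor of 1.16 CPM to be placed firmly. It was the lowest for Got2 (113 CPM) and Slc38a7 (8.13 CPM). For Gm32122 its value was 0.774 CPM, next to 1.12 CPM, but this rests on 2 reads, whose interval of 0.0938 to 2.80 CPM spans the other mutants, so it cannot be said to lie apart. The other was female wild-type 4, the highest of its group for Slc38a7 (25.6 CPM, next 23.8). Of the neighbours set apart in female mutant 3, those of 2900052N01Rik (Bud13 and Gm40518) were high, as was 2900052N01Rik itself. Those of Gm32122 moved in either direction.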

How the results depend on the processing

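The described difference of 2900052N01Rik was 0.57 (males alone) to 1.31 (females alone) over its alternatives and that of Gm32122 1.13 to 1.48, all higher in mutants. The number of genes called for genotype, 1 with edgeR, was 29 with DESeq2 (9 higher, 20 lower), 0 on library totals, 53 with DESeq2 without female mutant 3 (20 higher, 33 lower), 150 without a filter and without that library (61 higher, 89 lower; chosen after seeing the data), and 0 to 2 when each library was left out. It was 2 without female mutant 3 and 0 without any other. The sex effect of Gm32122 turned to -0.0022 without male wild-type 8, and ranged up to 0.26 as each library was left out. Its difference between sexes turned to 0.047 on library totals, 0.15 without female wild-type 5 and 0.32 without male wild-type 8, from a lowest of -0.43. Over the alternatives the adjusted p for sex was 0.674 to 0.9998 (2900052N01Rik) and 0.815 to 0.9998 (Gm32122), and for the difference between sexes 0.284 to 0.801 and 0.805 to 0.99999. Neighbours stayed uncalled in every alternative run, Cadm1 at adjusted p = 0.106 to 0.9998. Cdh8 turned to -0.052 on library totals and, without female mutant 3, to -0.043 with edgeR, -0.042 with DESeq2 and -0.037 with no filter, and its highest was 0.097. Sap18b turned to -0.018 without male wild-type 8, and was at most 0.13 as each library was left out and 0.14 over all alternatives. Of the 5 genes most like 2900052N01Rik, 2 were kept over 11 libraries and 1 by deviations from group means, and of those most like Gm32122, 1 and 0. The causes were not tested. Gm32122 was not kept at 1 CPM in 6 libraries and has no value there. No paired analysis was possible because each animal number occurs in only 1 group.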
